A study of Sus scrofa with 6 samples.

Results

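Genes of the extracellular matrix were followed in the endometrium, the inner lining of the uterus, of Erhualian sows, a Chinese breed of pig (Sus scrofa). A list of 57 collagens, laminins and other matrix proteins was matched by gene symbol to the rows of the expression table, and 51 of the 57 had a row, out of 14262 genes in all. No row matched COL4A1, COL6A2, COL7A1, LAMA2, MFAP4 or THBS4, which are not analysed here. As 2285 rows had no symbol, a row of these genes without one cannot be told, and their absence does not show a low level. RNA came from the endometrium of 3 high prolific and 3 low prolific sows on day 12 of gestation, 1 library per sow. The sows are named by group and label number, and their parity, meaning litters borne so far, was 5, 8 and 8 in high 1 to high 3 and 7, 7 and 5 in low 1 to low 3. The labels name no treatment and no age, and give neither the litter sizes behind the groups nor the state of the conceptuses. Values are normalized read counts of bulk tissue, in which fewer cells of a type and less RNA per cell cannot be told apart.

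The matrix of the endometrium has several layers. Fibrillar collagens form the fibres of the stroma, and the basement membrane, a sheet of type IV collagen, laminin, nidogen and perlecan, underlies the epithelium and surrounds vessels and glands. Elastic fibres are elastin on a scaffold of fibrillin microfibrils, while proteoglycans and matricellular proteins space the fibres, hold water and growth factors and adjust how cells adhere. In the pig, whose placenta does not invade the uterine wall, the conceptus attaches to the surface epithelium while the stroma below grows new vessels and takes up fluid. The 51 genes were placed in 5 groups on these grounds, 6 fibrillar collagens, 7 fibril-associated, beaded and other collagens, 17 basement membrane genes, 8 elastic fibre genes and 13 proteoglycans and matricellular or adhesive glycoproteins.

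The deposited columns summed to between 22663087 and 24270245, sums set by the normalization, and the depth behind each value is unknown. The first principal component of all genes (43.6% of the variance) separated low 2 and low 3, at -0.53 and -0.54, from the other 4 sows, at 0.019 to 0.50. Results are therefore also given without those 2. Marker genes of epithelium and stroma were looked up as well. The epithelial markers EPCAM (at least 7896 in every sow), CDH1 (at least 15318) and KRT8 (at least 11217) and the stromal markers PDGFRA (at least 4922), PDGFRB (at least 4191) and VIM (at least 16205) were present in all 6 libraries. None of the measured cell type markers was listed at 0, but only 1 of all 14262 genes was at 0 in any sow, because low genes are not in the table. These levels describe the libraries and do not test the tissue label.

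Most matrix genes lay lower in the endometrium of high prolific sows, a difference that mostly went when low 2 and low 3 were left out. Those 2 sows were picked on the first principal component of the same data, and leaving them out keeps 1 low prolific sow. The log2 fold change, high minus low prolific, was below 0 in 42 of 51 genes (82.4%, against 50.4% of all genes tested), with a median of -0.31 against -0.0024 for all genes. No matrix gene passed the test: at the 0.05 threshold for the adjusted p limma called 0 of the 51 and 0% of all 14262 genes, and the 51 adjusted p-values lay between 0.619 and 0.987. With no adjustment, 8 genes had p under 0.05 and lay lower in high prolific sows (15.7%, against 4.09% of all genes) and 4 had it and lay higher (7.84%, against 3.83%). All 3 high prolific sows lay below all 3 low prolific sows in 8 genes (15.7%, against 6.32% of all genes), namely VCAN, BGN, TNXB, COL15A1, ELN, EMILIN1, FBLN1 and COL21A1, and above them in 2 (3.92%, against 7.18%), FMOD and COL14A1. The members were listed with earlier results of these data known, so these shares describe the list and do not test it.

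The sows of the low prolific group did not behave alike. Low 2 lay above all 3 high prolific sows in 31 of the 51 genes (60.8%, against 31.7% of all genes) and low 3 in 35 (68.6%, against 32% of all genes). Low 1 did so in 11 (21.6%, against 25.5% of all genes). It lay within the range of the high prolific sows in 27 (52.9%, against 49.1%) and below that range in 13 (25.5%, against 25.4%). For low 1 these shares were near those of all genes. Low 3 was the highest of the 6 sows in 22 genes (43.1%, against 22% of all genes) and low 2 in 17 (33.3%, against 21%). High 2 was the lowest in 21 (41.2%, against 16.2% of all genes). With low 2 and low 3 left out, 23 of the 51 log2 fold changes were below 0 (45.1%, against 50% of all genes) and the median turned to 0.061. With low 1 left out instead, 21 of the 51 had an unadjusted p under 0.05 (41.2%, against 13.1% of all genes), the median was -0.50 and the smallest adjusted p was 0.105, for ELN. In the same fit limma called 0 of the 51 and 4 of all genes (0.028%).

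**Figure D1:**
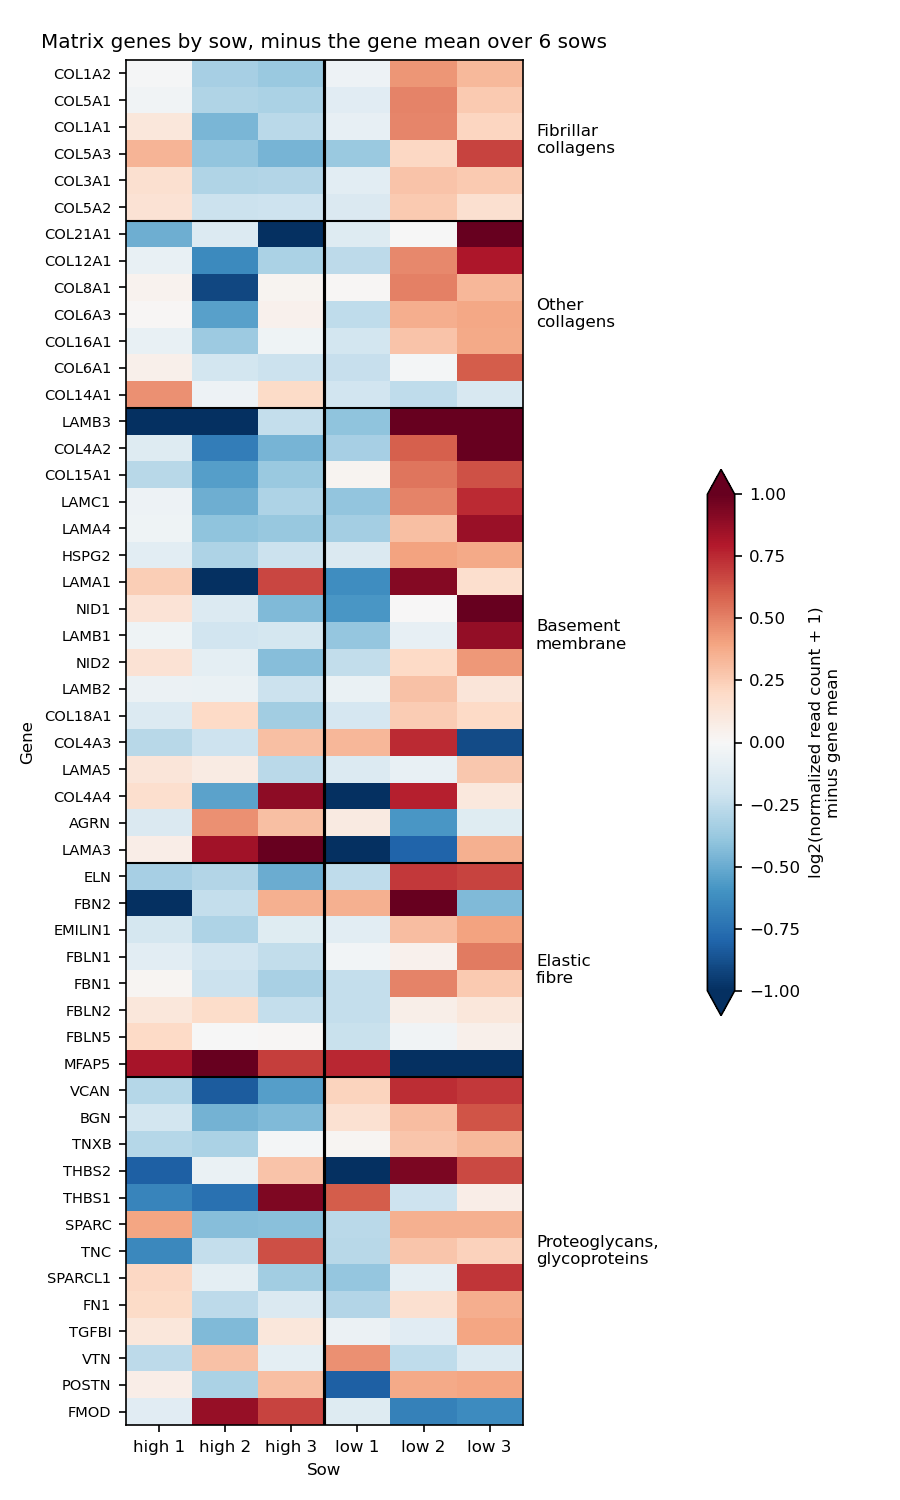
Heat map of the 51 matrix genes (rows, in their 5 groups, ordered within a group by log2 fold change) in the 6 sows (columns), coloured by log2(normalized read count + 1) after subtracting each gene's 6-sow mean, with the scale ending at -1 and 1. Most rows show low 2 and low 3 above the gene mean, whereas low 1 resembles the high prolific sows in many of them, and MFAP5, FMOD and COL14A1 run the other way.

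Parity differs between the groups and was set beside this pattern. Only parity 5 occurs in both groups, in high 1 and low 3. Between these 2 sows 42 of the 51 genes were lower in high 1, with a median log2 difference of -0.33, where 49.5% of all genes were lower and the median was 0.0033; this is 1 sow against 1, with no test. With parity as a covariate 40 of the 51 lay below 0 and the median was -0.25. The parity 8 sows are all high prolific and the parity 7 sows all low prolific, so for these animals group and parity cannot be told apart.

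The 6 fibrillar collagen genes, chains of types I, III and V that make the tensile fibres of the stroma, all had log2 fold changes below 0, 4 of them without low 2 and low 3 (median log2 fold change -0.38, none past the test). COL3A1, the type III chain abundant in soft and distensible tissues, held the highest value of all genes in every library, before any scaling by length, at 279313, 202887 and 204818 in high 1 to high 3 and 232351, 304833 and 301184 in low 1 to low 3. COL1A1, the alpha-1 chain of type I collagen, was at 196786, 132411 and 151246 in high 1 to high 3 and 171738, 255612 and 211415 in low 1 to low 3. Its alpha-2 partner COL1A2 was at 125879, 100809 and 97937 in high 1 to high 3 and 122785, 172145 and 159280.0 in low 1 to low 3. In all 3 genes the 2 highest sows were low 2 and low 3 and the 2 lowest high 2 and high 3, and low 1 fell between high prolific sows. High 1 lay above low 1 in each of the 3.

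As group means COL1A1 was at 160148 ± 33098 for the high prolific and 212922 ± 41957 for the low prolific group (SD, n = 3), a log2 fold change of -0.41 ± 0.22 (SE). COL1A2 had the smallest unadjusted p of the group and a log2 fold change of -0.48 ± 0.19 (SE) (adjusted p = 0.629 with limma), which is 1.39-fold lower in high prolific sows. COL3A1 had -0.29 ± 0.20 (SE). COL5A1, whose type V collagen sets the diameter of type I fibrils, was at 9941, 8280.4 and 8209.9 in high 1 to high 3 and 9455, 14418 and 12256 in low 1 to low 3. This gave COL5A1 a log2 fold change of -0.44 ± 0.18 (SE). Again low 2 and low 3 were the 2 highest, and low 1 lay below high 1. The other 2 type V chains, COL5A2 and COL5A3, ranged from 10320.3 to 14303 and from 1920.3 to 4241 over the 6 sows and had log2 fold changes of -0.18 and -0.34. These turned to 0.054 and 0.20 without low 2 and low 3. The 6 genes together took 2.66%, 2.02% and 2.07% in high 1 to high 3 and 2.38%, 3.15% and 2.91% in low 1 to low 3 of a column. Without low 2 and low 3 the group's median went from -0.38 to -0.072.

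The chains of type I collagen kept nearly the same proportion in every sow. COL1A1 itself ranged over 1.93-fold between the lowest and the highest sow and COL1A2 over 1.76-fold, whereas the ratio of the one to the other ranged over 1.19-fold. The ratio of COL3A1 to COL1A1 ranged over 1.28-fold and that of COL5A1 to COL5A2, 2 chains of type V collagen, over 1.34-fold. The COL5A1 to COL5A2 ratio was 0.751, 0.802 and 0.793 in high 1 to high 3 and 0.875, 1.01 and 0.917 in low 1 to low 3, and the groups did not overlap. These are ratios of normalized read counts not scaled by length, so their spread between sows can be read and their absolute size cannot, and no test was made of them.

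Among the collagens that coat fibrils, form beaded filaments or span short meshes, 6 of 7 lay lower in high prolific sows (median log2 fold change -0.33) and COL14A1 lay higher, none past the test. Without low 2 and low 3, 3 of 7 lay lower. COL14A1, a collagen of fibril surfaces that takes part in setting fibril size, was at 14218, 9995 and 11811 in high 1 to high 3 and 9036, 8662 and 9255 in low 1 to low 3. Every high prolific sow lay above every low prolific sow, and the log2 fold change of 0.40 ± 0.15 (SE) was 0.40 without low 2 and low 3. COL12A1, its relative of tissues under strain, differed in the opposite direction, at 2167, 1469.8 and 1838 in high 1 to high 3 and 1909.7, 3194 and 4009.6 in low 1 to low 3. Its log2 fold change of -0.69 ± 0.29 (SE) was -0.083 without low 2 and low 3. Low 3 and low 2 were the 2 highest, and low 1 lay between high 3 and high 1.

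COL21A1, a fibril-associated collagen of vessel walls and muscle, was low in 5 sows and high in 1, at 51, 65.5 and 35.1 in high 1 to high 3 and 65.7, 71.7 and 250.5 in low 1 to low 3. The groups touched without overlapping, at 65.5 in high 2 and 65.7 in low 1. For COL21A1 the log2 fold change of -1.10 ± 0.56 (SE) was -0.48 without low 3. COL8A1, a short-chain collagen of endothelium, was at 181, 93.2 and 179.8 in high 1 to high 3 and 178, 251 and 223 in low 1 to low 3. The COL8A1 log2 fold change of -0.57 ± 0.31 (SE) was -0.25 without high 2, its lowest sow. COL6A3, the long chain of the beaded type VI filaments that link cells to fibrils, was at 20391, 13879 and 20843 in high 1 to high 3 and 16966, 25959 and 26414 in low 1 to low 3. Its log2 fold change of -0.33 ± 0.24 (SE) turned to 0.091 without low 2 and low 3. COL6A1, a shorter chain of the same filaments, ranged over 11599 to 13986 in the high prolific and over 11463 to 20503 in the low prolific sows, with a log2 fold change of -0.23. It turned to 0.011 without low 3 and to 0.12 without low 2 and low 3. COL16A1, a fibril-associated collagen, ranged over 3018 to 3754 and over 3405 to 5054 (-0.32, and 0.028 without low 2 and low 3). The ratio of COL6A3 to COL6A1 ranged over 1.67-fold between sows, from 1.17 in high 2 to 1.96 in low 2.

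In the basement membrane 14 of 17 log2 fold changes were below 0 (median -0.27), and LAMA3, AGRN and COL4A4 lay higher, none past the test. COL15A1, a collagen of the outer face of vascular and muscle basement membranes, was at 3695, 3068 and 3478 in high 1 to high 3 and 4570.1, 6487 and 6990.3 in low 1 to low 3. All 3 low prolific sows lay above all 3 high prolific sows, 1.74-fold on the log2(value + 1) scale. This is a log2 fold change of -0.80 ± 0.18 (SE) (adjusted p = 0.619 with limma), and of -0.43 without low 2 and low 3. COL4A2, a chain of the network collagen of every basement membrane, was at 14713, 9960.2 and 11644 in high 1 to high 3 and 12746, 24295 and 32350.0 in low 1 to low 3. Low 3 stood at 3.25 times high 2, the lowest sow, while low 1 fell inside the high prolific range. The log2 fold change of -0.85 ± 0.35 (SE) was -0.093 without low 2 and low 3. COL18A1, the precursor of endostatin and a collagen of the same membranes, ranged over 11156 to 16298 in the high prolific and over 12596 to 16897 in the low prolific sows (-0.19, and 0.076 without low 2 and low 3).

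The laminins, heterotrimers of an alpha, a beta and a gamma chain, divided. LAMC1, the gamma chain shared by most laminins, was at 6490.1, 4811 and 5437 in high 1 to high 3 and 5137, 9511 and 11295 in low 1 to low 3. LAMA4, the alpha chain of vessels, ranged over 2072 to 2649.7 in the high prolific and over 2166 to 4976 in the low prolific sows. LAMB1, a beta chain of many laminins, ranged over 7638 to 8443 and over 6670.0 to 16057. In these 3 genes low 3 was highest. Their log2 fold changes of -0.57, -0.55 and -0.27 turned to 0.11, 0.061 and 0.25 without low 2 and low 3. NID1, nidogen, which ties laminin to type IV collagen, was also highest in low 3, at 14969.8 against 4935 to 8087 in the other 5 sows. Its relative NID2 ranged from 2875 to 5209.9 over the 6. The nidogens' log2 fold changes of -0.30 and -0.25 turned to 0.43 and 0.12 without low 2 and low 3. HSPG2, perlecan, the heparan sulfate proteoglycan of the membrane, was at 13093, 11327 and 12112 in high 1 to high 3 and 12699, 18541 and 18305 in low 1 to low 3 (-0.42). Its high values were those of low 2 and low 3, and the other 4 sows lay close together. LAMB2 ranged from 5207 to 7405, with the same 2 sows on top (-0.23). LAMA5, the epithelial alpha chain, ranged from 4263 to 6181 (-0.04, and 0.11 without low 2 and low 3).

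LAMB3 and LAMA3, which encode 2 chains of laminin-332, the laminin that anchors surface epithelium, differed in opposite directions. LAMB3 was at 309.9, 101 and 681 in high 1 to high 3 and 609, 5555 and 3730.0 in low 1 to low 3. Far above all other sows stood low 2 and low 3, and low 1 lay just under high 3. The group means were 364 ± 294 for the high prolific and 3298 ± 2501 for the low prolific group (SD, n = 3). This gave a log2 fold change of -3.06 ± 1.00 (SE) (adjusted p = 0.619 with limma), which was -1.13 without low 2 and low 3. LAMA3 was at 1602, 2748 and 3235 in high 1 to high 3 and 526, 879 and 1958 in low 1 to low 3. High 2 and high 3 were the 2 highest, and low 3 lay above high 1. Its log2 fold change was 1.32 ± 0.51 (SE), 2.50-fold higher in high prolific sows, and 2.20 without low 2 and low 3. The ratio of LAMB3 to LAMA3 was 0.194, 0.0367 and 0.21 in high 1 to high 3 and 1.16, 6.32 and 1.9 in low 1 to low 3. Every low prolific sow, low 1 included, lay above every high prolific sow in this ratio.

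AGRN, agrin, a heparan sulfate proteoglycan of epithelial basement membranes, ranged over 4237 to 6436 in the high prolific and over 3131 to 4975 in the low prolific sows. Its log2 fold change was 0.41 ± 0.23 (SE). LAMA1, a laminin alpha chain best known from embryonic basement membranes, was at 195, 63.1 and 262 in high 1 to high 3 and 107, 312 and 186 in low 1 to low 3. No order of the groups could be read from it. Its log2 fold change of -0.31 ± 0.62 (SE) turned to 0.30 without high 2 and to 0.072 without low 2. COL4A3 and COL4A4, chains of the specialised type IV network of kidney and lung, were near the lower limit of the table, at 10.5 to 35 and 10.4 to 55.7. Their log2 fold changes were -0.12 ± 0.48 (SE) and 0.35 ± 0.65 (SE). Without low 2 and low 3, 6 of the 17 genes lay below 0 and their median turned to 0.11.

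**Figure D2:**
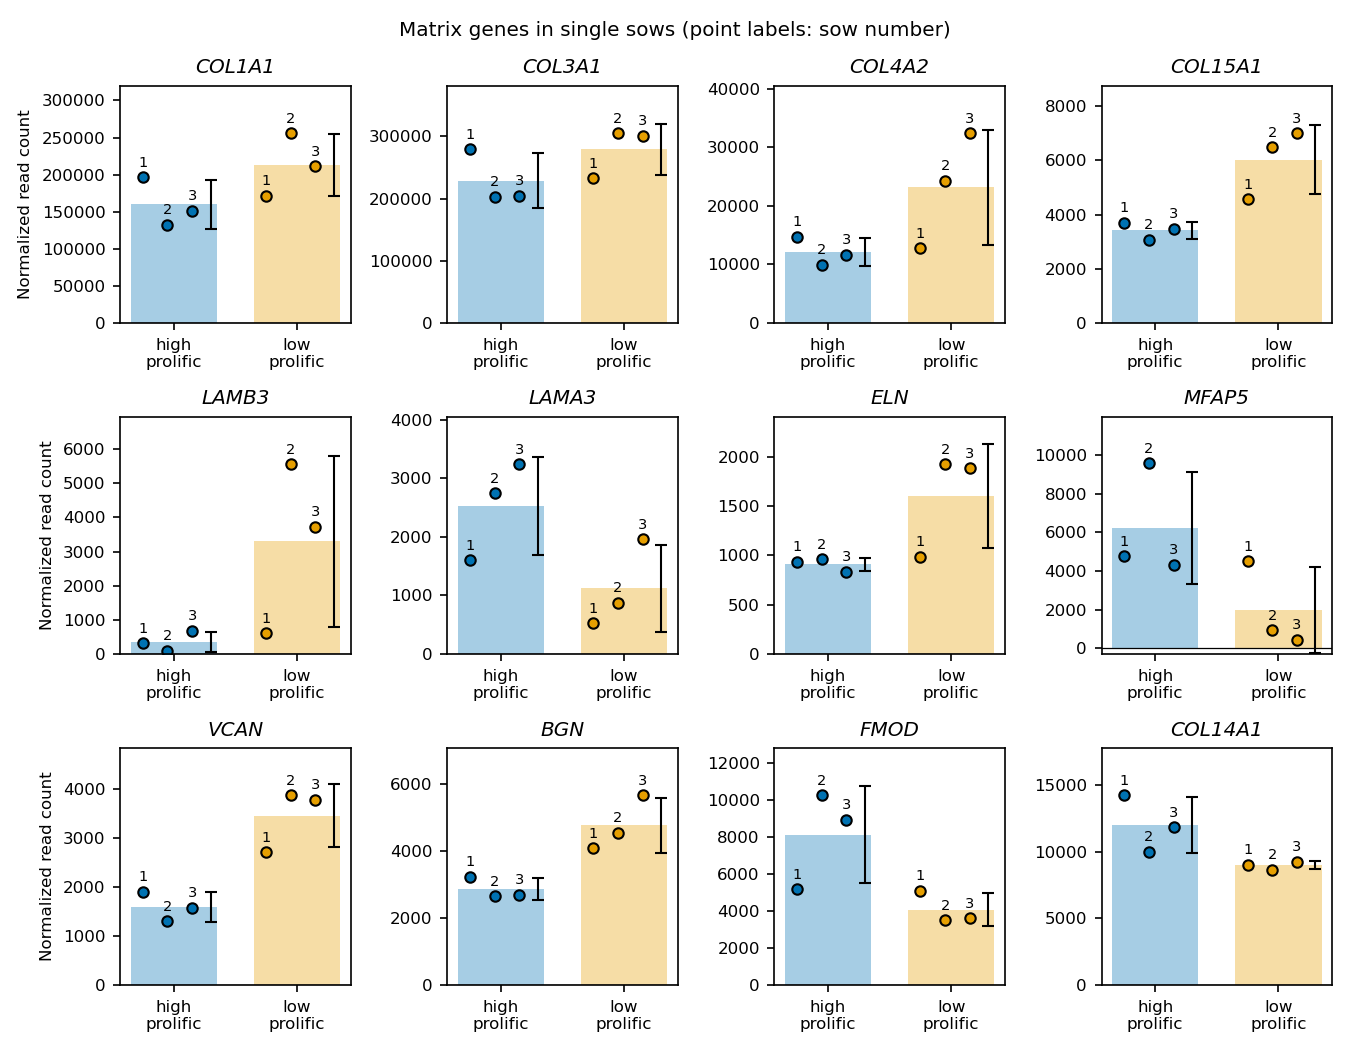
Normalized read counts (linear axes) of 12 matrix genes, blue for high and orange for low prolific sows, with bars for the mean of 3 sows, error bars for the SD and numbered points for single sows. In the COL1A1, COL3A1, COL4A2, COL15A1, LAMB3 and ELN panels low 2 and low 3 stand above low 1. In the VCAN, BGN, COL15A1 and, by little, ELN panels low 1 too lies above all 3 high prolific sows.

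Of the elastic fibre genes 5 of 8 lay lower in high prolific sows. Their median log2 fold change was -0.35 and their mean -0.0063, the 2 set apart by MFAP5, and none passed the test. ELN, elastin, the extensible core of the fibre, was at 937, 960.0 and 836 in high 1 to high 3 and 988, 1922 and 1885 in low 1 to low 3. The values of low 2 and low 3 were about level with each other and above the rest, and low 1 lay just above the high prolific sows. Elastin's log2 fold change of -0.75 ± 0.27 (SE) (adjusted p = 0.619 with limma) was -0.12 without low 2 and low 3. FBN1, the main fibrillin of the microfibrils, was at 7626, 6451 and 5994 in high 1 to high 3 and 6366, 10564 and 9018 in low 1 to low 3. For FBN1 the log2 fold change of -0.35 ± 0.21 (SE) turned to 0.064 without low 2 and low 3. The ratio of FBN1 to ELN lay between 6.72 and 8.14 in high and between 4.78 and 6.44 in low prolific sows, without overlap.

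EMILIN1, a glycoprotein at the interface of elastin and microfibrils, was at 1528, 1396 and 1589 in high 1 to high 3 and 1606, 2133 and 2278 in low 1 to low 3. FBLN1, a fibulin of elastic fibres and basement membranes, was at 7304, 6877 and 6606 in high 1 to high 3 and 7696, 8097 and 11248 in low 1 to low 3. In both genes the groups did not overlap. Their log2 fold changes of -0.40 ± 0.15 (SE) and -0.36 ± 0.17 (SE) were -0.096 and -0.15 without low 2 and low 3. FBLN2 and FBLN5, the latter needed for elastic fibre assembly, ranged from 3104 to 4173 and from 2838 to 3815 over all sows, with log2 fold changes of 0.043 and 0.14. FBN2, the fibrillin of developing tissue, ranged from 98.9 to 411 (-0.62). MFAP5, a glycoprotein of the microfibrils, went the other way, at 4754, 9574 and 4327 in high 1 to high 3 and 4518, 944 and 439.7 in low 1 to low 3. Its 2 low sows were low 2 and low 3, and low 1 lay among the high prolific sows. The log2 fold change of 2.24 ± 0.84 (SE) was 0.36 without those 2, 1.49 without low 3 and 3.17 without low 1. Without low 1 the median of the 8 genes was -0.51, without low 2 it was -0.23, and without low 2 and low 3 it was -0.016, with 4 of 8 below 0.

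The proteoglycans and matricellular or adhesive glycoproteins held the matrix genes with the smallest unadjusted p. In 11 of 13 the log2 fold change was below 0, with a median of -0.16, and FMOD and POSTN lay higher. VCAN, versican, a large hyaluronan-binding proteoglycan of loose, hydrated stroma, was at 1902, 1297 and 1577 in high 1 to high 3 and 2706, 3861 and 3777 in low 1 to low 3. BGN, biglycan, a small proteoglycan that binds collagen and growth factors, was at 3232, 2642 and 2696 in high 1 to high 3 and 4079, 4543 and 5657 in low 1 to low 3. In both, every low prolific sow lay above every high prolific sow, and low 1 was the lowest of the low prolific 3. VCAN was 2.16-fold lower in high prolific sows, a log2 fold change of -1.11 ± 0.20 (SE). BGN was 1.66-fold lower, at -0.73 ± 0.16 (SE) (adjusted p = 0.619 for both with limma). These differences kept most of their size without low 2 and low 3, at -0.78 and -0.52. TNXB, a tenascin of fibril spacing, did not overlap either, at 5641, 5513 and 6784 in high 1 to high 3 and 6955, 8317 and 8583 in low 1 to low 3. Its log2 fold change of -0.41 ± 0.14 (SE) was -0.22 without the 2 sows.

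FMOD, fibromodulin, a small proteoglycan that binds fibrillar collagen and guides fibril growth, lay higher in high prolific sows, at 5193, 10271 and 8962 in high 1 to high 3 and 5115, 3509 and 3619.9 in low 1 to low 3. High 2 and high 3 stood out, and high 1 exceeded low 1 by little. The group means were 8142 ± 2636 for the high prolific and 4081 ± 897 for the low prolific group (SD, n = 3), 1.94-fold on the log2(value + 1) scale. FMOD had a log2 fold change of 0.96 ± 0.29 (SE) (adjusted p = 0.619 with limma), and of 0.61 without low 2 and low 3. The ratio of VCAN to FMOD lay between 0.126 and 0.366 in high and between 0.529 and 1.1 in low prolific sows. As each gene already separated the groups, in opposite directions, this separation follows from them and is no further result.

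FN1, fibronectin, which links integrins to collagen, was at 12713, 9284 and 10076 in high 1 to high 3 and 9077, 12440.5 and 14315 in low 1 to low 3. SPARC, a collagen-binding matricellular protein, was at 70004, 39630.4 and 39711 in high 1 to high 3 and 44186, 68042 and 67920.0 in low 1 to low 3, with high 1 the highest of all. TNC, tenascin-C, a protein of remodelling stroma, was at 298, 393 and 728 in high 1 to high 3 and 384, 564 and 547 in low 1 to low 3. The groups overlapped in all 3. Their log2 fold changes of -0.15 ± 0.21 (SE), -0.30 ± 0.29 (SE) and -0.16 ± 0.35 (SE) turned to 0.22, 0.12 and 0.19 without low 2 and low 3. That of TNC also turned to 0.12 without high 1. Of the thrombospondins, THBS2 ranged from 356 to 1377 and THBS1 from 1334 to 4269, with the groups overlapping in each. The log2 fold change of THBS2 was -0.40, -0.026 without low 2 and 0.81 without low 2 and low 3. That of THBS1 was -0.31, -0.018 without high 2, -0.86 without high 3 and -0.76 without low 2 and low 3. TGFBI (380.1 to 680.0), SPARCL1 (7239 to 15467), POSTN, periostin (206 to 478), and VTN, vitronectin, a plasma protein (20.8 to 35), had log2 fold changes of -0.15, -0.16, 0.031 and -0.048. Without the sows low 2 and low 3 they were -0.011, 0.31, 0.83 and -0.48. Without low 1 the median of the 13 genes was -0.37 and without low 2 and low 3 it turned to 0.12, with 6 of 13 below 0.

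In 13 of the 51 genes the sign of the log2 fold change turned when 1 sow was left out. Without low 3 it turned in 6, COL6A1 (0.011), LAMB1 (0.099), NID1 (0.14), LAMA5 (0.084), SPARCL1 (0.16) and TGFBI (0.015). Without low 1 it turned in 5, COL4A3 (0.012), COL4A4 (-0.27), FBLN2 (-0.066), POSTN (-0.37) and VTN (0.17), and without low 2 in COL4A3 (0.22) and LAMA1. Leaving out high 1 turned FBLN2 (-0.0034), VTN (0.071) and TNC. Leaving out high 2 turned FBLN2 (-0.039), TGFBI (0.039) and LAMA1, and leaving out high 3 turned COL4A4 (-0.0055), LAMA5 (0.083) and POSTN (-0.11).

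**Figure D3:**
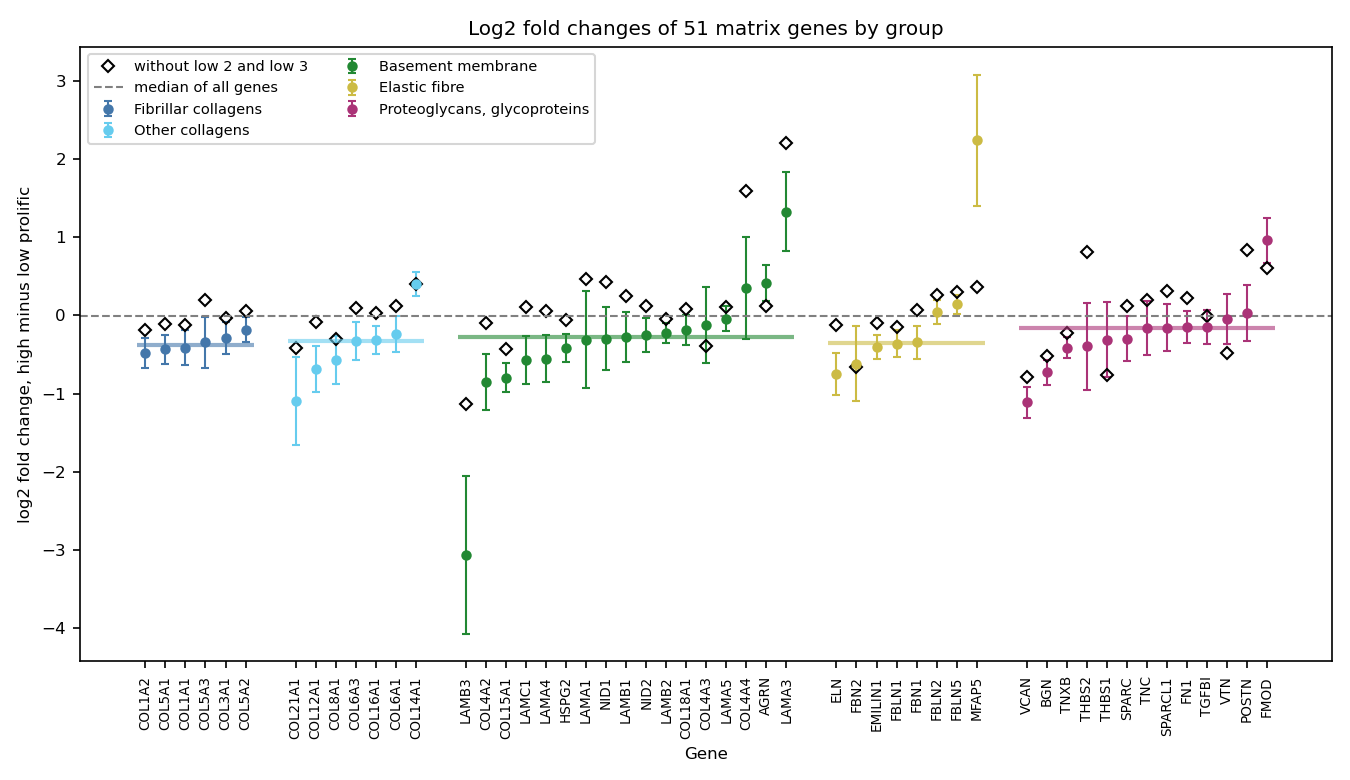
Log2 fold changes, high minus low prolific, of the 51 matrix genes by group (filled points, with the moderated SE as error bars), group medians (coloured lines), the median of all genes (dashed) and the values without low 2 and low 3 (open diamonds). Most filled points lie below 0, and most diamonds of the collagens and laminins lie closer to 0 than the filled points, whereas VCAN stays at -0.78, BGN at -0.52 and FMOD at 0.61.

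The enzymes and chaperones that make collagen were listed beside their substrates. Of 26 measured genes of collagen biosynthesis and processing, 25 lay lower in high prolific sows (median log2 fold change -0.35), 0 past the test. Without low 2 and low 3 the count was 15 of 26. Low 2 was the highest of the 6 sows in 16 of the 26, as it was in 21% of all genes. The 3 with the smallest unadjusted p were lysyl oxidases, which cross-link collagen and elastin. LOX was at 1007, 911 and 705 in high 1 to high 3 and 985, 1341 and 1934 in low 1 to low 3. LOXL1 was at 83.2, 67.8 and 86.9 in high 1 to high 3 and 144, 146 and 89 in low 1 to low 3, and LOXL4 at 16.6, 3.33 and 9.77 in high 1 to high 3 and 31, 58.1 and 45.5 in low 1 to low 3. Their log2 fold changes were -0.66, -0.64 and -2.25, and -0.19, -0.86 and -1.78 without low 2 and low 3. LOXL1 and LOXL4 did not overlap between the groups, and in LOX low 1 lay below high 1. LOXL4 was near the lower limit of the table, below 10 in high 2 and high 3. It could reach 10 in at least 3 sows only through the low prolific group. Of 11 other small leucine-rich proteoglycans and hyaluronan-linked matrix genes, 8 lay lower (median -0.26), 6 without low 2 and low 3. OGN, osteoglycin, was at 1763, 1476 and 1297 in high 1 to high 3 and 2187, 1770.3 and 2498 in low 1 to low 3. ECM2 was at 2368, 2088 and 2159.7 in high 1 to high 3 and 2656, 2562 and 2674 in low 1 to low 3, and OMD, osteomodulin, at 705, 317 and 488 in high 1 to high 3 and 629.6, 1284 and 939 in low 1 to low 3. OGN and ECM2 did not overlap between the groups, and OMD did. These 3 had the smallest unadjusted p of their list, with log2 fold changes of -0.51, -0.26 and -0.93, and -0.54, -0.27 and -0.40 without low 2 and low 3. Of 24 integrins and other matrix receptors, 19 lay lower (median -0.16), 14 without low 2 and low 3. The laminin receptor chain ITGA7 was at 653, 487 and 452 in high 1 to high 3 and 629.7, 833 and 884 in low 1 to low 3. The fibrillar collagen receptor DDR2 was at 635, 658 and 606 in high 1 to high 3 and 693, 888 and 953 in low 1 to low 3, without overlap, and ITGA3, which binds laminin-332, at 3210.2, 2222 and 2361 in high 1 to high 3 and 4441, 4180.1 and 2889 in low 1 to low 3. In log2 units the 3 differed by -0.56, -0.40 and -0.56, and -0.26, -0.13 and -0.79 without low 2 and low 3. All 3 high prolific sows lay below all 3 low prolific sows in 3 of the 26 (11.5%), 3 of the 11 (27.3%) and 2 of the 24 (8.33%). The share over all genes was 6.32%. No gene of these lists had all 3 high prolific sows above all 3 low prolific sows. None of these 3 lists had a gene past the test.

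Markers of cells that make these proteins were set beside them. The endothelial markers lay lower in high prolific sows in 7 of 7 measured genes, and their summed level was 11041 to 15982 in high and 13473 to 24457 in low prolific sows. Low 3 was the highest sow in all 7, and in 22% of all genes. Among the matrix groups it was the highest in 8 of 17 basement membrane genes and 5 of 7 other collagens. The same held for 6 of 13 proteoglycans and glycoproteins, 2 of 8 elastic fibre genes and 1 of 6 fibrillar collagens. PECAM1, the adhesion molecule of vessel lining, was at 3201, 2356 and 2663 in high 1 to high 3 and 4211, 4834 and 6353 in low 1 to low 3, without overlap. In the other 6 endothelial markers the groups overlapped, so 1 of 7 did not (14.3%, against 6.32% of all genes). Among these KDR, with a higher mean than PECAM1, was at 4216, 3137 and 2556 in high 1 to high 3 and 2918, 4705 and 6309 in low 1 to low 3. Without low 2 and low 3 the endothelial count was 2 of 7. The smooth muscle and pericyte markers lay lower in 7 of 8 (summed level 28446 to 35534 in high and 34908 to 36869 in low prolific sows), 6 of 8 without low 2 and low 3. ACTA2, smooth muscle actin, was at 4881, 2732 and 4779 in high 1 to high 3 and 6676, 10018 and 7297 in low 1 to low 3, again without overlap. MYH11, the defining myosin of smooth muscle, was the exception, with a log2 fold change of 0.33. It was at 13483, 21899 and 11627 in high 1 to high 3 and 16882, 13364 and 7666 in low 1 to low 3. RGS5 was at 6257, 6238 and 7022 in high 1 to high 3 and 6173, 5307 and 14164 in low 1 to low 3. The groups overlapped in both, which had higher means than ACTA2. Of the 8 markers 4 overlapped and 4 did not (50%, against 6.32% of all genes). The stromal fibroblast markers were divided, 5 lower and 4 higher (summed level 37417 to 48889 in high and 33844 to 60627 in low prolific sows). The 9 log2 fold changes ran from -0.63 to 0.95, with a median of -0.042. PDGFRA was at 7661, 5921 and 5214 in high 1 to high 3 and 4922, 4969.7 and 8604 in low 1 to low 3, and VIM at 25307, 20368 and 18567 in high 1 to high 3 and 16205, 19146 and 36924 in low 1 to low 3, both with overlap. PDGFRB was at 4566, 4476 and 4191 in high 1 to high 3 and 4574, 5059.8 and 6619 in low 1 to low 3. TCF21, a transcription factor, was at 107, 92.6 and 91.8 in high 1 to high 3 and 144, 160.5 and 146 in low 1 to low 3. In both every high prolific sow lay below every low prolific sow, though in PDGFRB high 1 (4566) and low 1 (4574) nearly touched. In the other 7 fibroblast markers the groups overlapped, so 2 of 9 did not (22.2%, against 6.32% of all genes). The log2 fold changes of PDGFRB and TCF21 were -0.28 and -0.63, and -0.053 and -0.57 without low 2 and low 3. DPT, dermatopontin, lay higher, at 3565, 1315 and 3094 in high 1 to high 3 and 1330.2, 1440.2 and 1041 in low 1 to low 3 (0.95).

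The epithelial markers lay higher in high prolific sows in 6 of 9, with a summed level of 66472 to 71919 in high and 51799 to 77955 in low prolific sows. Low 3 was the lowest sow in 5 of the 9, as it was in 23.2% of all genes. The epithelial markers did not move as one. CDH1, E-cadherin, the list's most abundant gene, was at 18895, 15318 and 17948 in high 1 to high 3 and 22226, 26177 and 19927 in low 1 to low 3 (-0.39). Every high prolific sow lay below every low prolific sow in CDH1, 1 of 9 epithelial markers (11.1%, against 6.32% of all genes). KRT8, a keratin, was at 19084, 27435 and 23245 in high 1 to high 3 and 25335, 14061 and 11217 in low 1 to low 3 (a log2 fold change of 0.54, and of -0.14 without low 2 and low 3). EPCAM overlapped between the groups (0.038), and the transcription factor ELF3 was at -0.62. Without low 2 and low 3 the epithelial count was 2 higher of 9 and 7 lower. Neutrophil markers, 4 measured of 8 listed, summed to 276 to 9139 in high and 11666 to 23295 in low prolific sows. The 4 differed in pattern. S100A8 was at 713, 2.22 and 113 in high 1 to high 3 and 85.2, 5414 and 10857 in low 1 to low 3. S100A12 was at 582, 3.97 and 169.9 in high 1 to high 3 and 169, 7533 and 5283 in low 1 to low 3, and both were highest in low 2 and low 3. MMP8, a collagenase of neutrophils, was at 4278, 168 and 8703 in high 1 to high 3 and 11244, 10304 and 1706 in low 1 to low 3, highest in low 1, and CSF3R ranged from 44.3 to 385, lowest in low 2. Macrophage markers lay lower in 6 of 8 (summed level 5388 to 7099 against 5795 to 8355) and lymphocyte markers in 2 of 8 (862 to 1211 against 821 to 863). The part of these cell types in the differences of the matrix genes was not tested.

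A score for each group in each sow, which averages over its genes how far log2(value + 1) stands from the 6-sow mean of the gene, shows the same 2 sows standing out in 4 of the 5 groups. It was 0.12, -0.33 and -0.32 in high 1 to high 3 and -0.14, 0.36 and 0.32 in low 1 to low 3 for the fibrillar collagens. For the basement membrane it was -0.10, -0.38 and -0.036 in high 1 to high 3 and -0.37, 0.40 and 0.49 in low 1 to low 3. The elastic fibre score, in which MFAP5 offsets ELN, was -0.06, 0.097 and -0.046 in high 1 to high 3 and 0.0028, 0.13 and -0.13 in low 1 to low 3. The fibrillar score of high 1 lay above that of low 1, and in the basement membrane low 1 was level with high 2. For all 51 genes the score was -0.076, -0.27 and -0.065 in high 1 to high 3 and -0.20, 0.26 and 0.34 in low 1 to low 3. The 51 took 3.89%, 3.07% and 3.12% in high 1 to high 3 and 3.4%, 4.48% and 4.46% in low 1 to low 3 of a column.

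**Figure D4:**
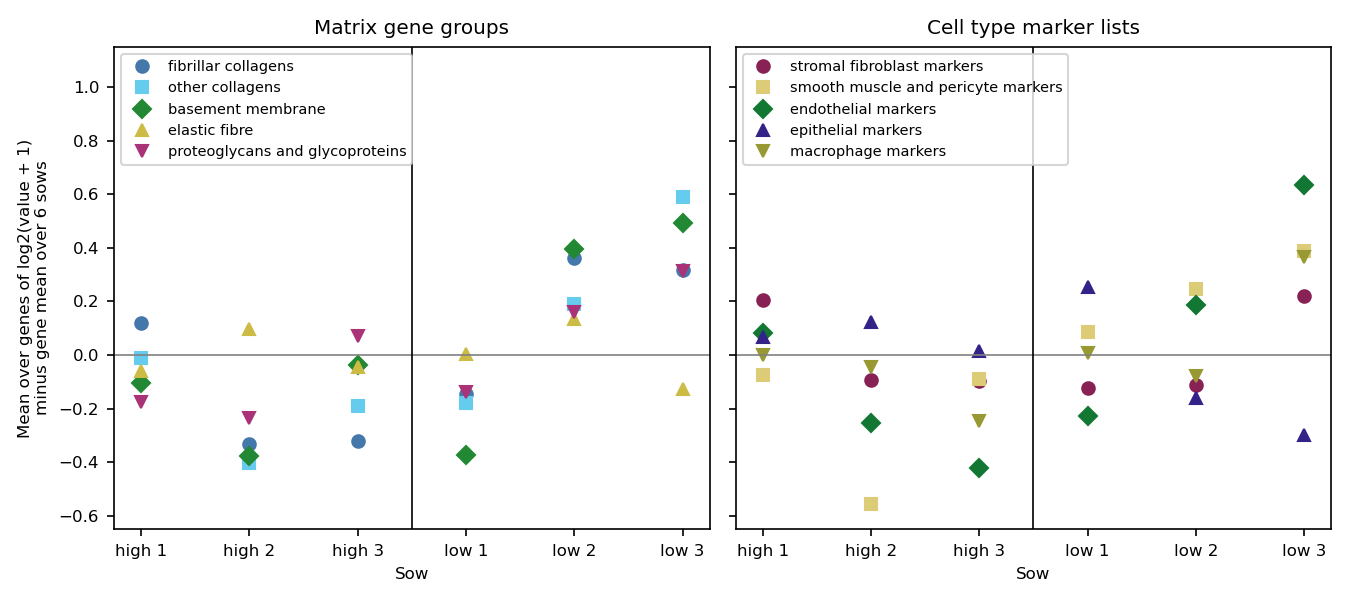
Scores by sow (mean over genes of log2(value + 1) minus the gene mean over 6 sows) for the 5 matrix gene groups (left) and for 5 cell type marker lists (right; the neutrophil and lymphocyte lists are not drawn). Fibrillar collagens and basement membrane genes are between 0.32 and 0.49 in low 2 and low 3 and below 0 in low 1, and the endothelial score is highest in low 3 at 0.64.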

How the data were processed

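Endometrial RNA of 6 sows was sequenced by the authors. The submitters' processing notes name Subread 1.6, featureCounts and edgeR. What each tool did, the genome build and the strand setting are not given in the sources used here. Coordinates are left out. The deposited values are a signal, normalized read counts that are not whole and whose depth is unknown, so no count model and no counting interval was used. All 14262 genes were at 10 or more in at least 3 sows and the smallest gene mean was 17.6: low genes are not in the table. Symbols matched 11977 identifiers. Near-identical or overlapping genes may share reads.

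Groups were compared over all 14262 genes with limma 3.58.1 (R 4.3.3). The fit was made on log2(value + 1), used robust moderation and a variance trend, was two-sided and was adjusted by Benjamini-Hochberg at 0.05. The procedure was also run on simulated data, with noise drawn independently for each gene and sow. Such noise lacks the spread that low 2 and low 3 share over many genes, so no conclusion is drawn from that run. The log2 fold change subtracts low from high prolific sows and understates the change of low genes, and folds are 2 to their power. Ratios between members were chosen after the values were seen. The members and lists were chosen with earlier results of these data known. The values of every sow are given for the 4 genes of each group with the smallest unadjusted p, its most abundant gene and 16 genes fixed by name (COL4A1 had no row), for the 3 genes of each pathway list with the smallest unadjusted p and for up to 3 markers of a cell type with the highest mean; genes named beyond these were chosen after their values were seen. Alternatives were another pseudocount (10), a minimum mean of 200, rescaled columns, no variance trend, library weights, parity, a replicate block and left-out sows.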

Additional observations from a re-analysis of the deposited data

How the results depend on the processing

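Limma called 0 genes over the whole table and 0 of the 51 matrix genes, with 1129 and 12 at an unadjusted p under 0.05. Among the 14 alternatives the whole-table count was 4 without low 1 and 1 without low 2, 0 to 4 over the single left-out sows, and no alternative called a matrix gene. The number of matrix genes below 0 was 36 to 43 over the single left-out sows and 23 with low 2 and low 3 left out together, a fit that keeps 1 low prolific sow and assumes that it varies like the high prolific group. In that fit the median log2 fold change was 0.061 for all members, -0.072 for fibrillar collagens, 0.028 for other collagens, 0.11 for the basement membrane, -0.016 for elastic fibres and 0.12 for proteoglycans and glycoproteins, and that of COL6A3 (0.091), FBN1 (0.064), FN1 (0.22), LAMA1 (0.47), LAMC1 (0.11), SPARC (0.12) and TNC (0.19) turned positive. Over the single left-out sows the elastic fibre median ranged from -0.51 to -0.23, the proteoglycan median from -0.37 to -0.13, LAMA1 from -0.72 to 0.30 and TNC from -0.52 to 0.12. The cause of these shifts was not tested. The counts below 0 per list, which like the values of pathway and marker genes without single sows were added after the data were seen, moved by over 1.5 times in the same fit for the basement membrane (14 to 6 of 17), other collagens (6 to 3 of 7), proteoglycans (11 to 6 of 13), collagen biosynthesis (25 to 15 of 26) and the endothelial (7 to 2 of 7), epithelial (3 to 7 of 9), fibroblast (5 to 3 of 9) and lymphocyte markers (2 to 1 of 8). In 26 of the 51 genes the sign was the same in every alternative that could be computed, and in 38 over the single left-out sows. A replicate block by label number left the median at -0.31 with 42 genes below 0, 0 called and 9 at an unadjusted p under 0.05, but same-numbered sows are different animals whose deviations correlated at -0.38, -0.16 and -0.36, so the numbers pair nothing. The minimum mean of 200 left 45 matrix genes. Depth is unknown, which limits what can be said of genes near the lower limit such as COL4A3, COL4A4, VTN and LOXL4.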

Other observations

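The table held 13 more chains of collagens and laminins that were not on the list, found by their symbols, 10 collagens and 3 laminins. Of these, 7 of 13 lay lower in high prolific sows, near the 50.4% of all genes, and none passed the test over all genes with limma. All 3 high prolific sows lay above all 3 low prolific sows in 2 of 13, COL13A1 and COL28A1, against 7.18% of all genes. COL28A1, a low gene, was at 27.1, 56.7 and 36.1 in high 1 to high 3 and 15.1, 12.2 and 24.8 in low 1 to low 3. COL17A1, the transmembrane collagen of hemidesmosomes that joins epithelium to laminin-332, was at 1711, 424 and 2354 in high 1 to high 3 and 5787, 1995 and 674 in low 1 to low 3, highest in low 1 and lowest in high 2. COL13A1, a transmembrane collagen, was at 2074, 1696 and 1785 in high 1 to high 3 and 657, 602 and 1289 in low 1 to low 3, so every high prolific sow lay above every low prolific sow, with a log2 fold change of 1.21 ± 0.30 (SE). COL4A5 and COL4A6, chains of the type IV family, were at 1511 to 2321 and 443 to 674 over all sows, with log2 fold changes of 0.21 and 0.24, opposite in sign to that of COL4A2. These genes were singled out after their values were seen.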
